A study of Rattus norvegicus with 4 samples.

Results

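Luteolin, a plant flavonoid, was given in the diet to rats that carry a dominant negative connexin 32 transgene, and liver RNA of that group, labelled Tg + luteolin, was set against RNA of transgenic rats on the same diet without luteolin, labelled Tg. Every group in the series received diethylnitrosamine, a liver carcinogen, by intraperitoneal injection at 10 weeks of age and then a methionine-choline deficient diet for 12 weeks. All rats were Sprague-Dawley. Wild-type rats with luteolin (Wt + luteolin) and without (Wt) had the same injection and basal diet. Each of the 4 groups had 1 single-colour Cy5 array, so the comparison is between 2 arrays of the 4. The arrays held 20174 probes, of which 14423 had a background-subtracted value on both transgenic arrays, and these gave 14331 genes. The labels do not give the promoter that drives the transgene, the sex of the rats, the amount of luteolin, or how many rats stand behind an array. With 1 array a group there is no replicate check, and every difference below is a log2 ratio between 2 arrays with no p-value.

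Connexin 32, encoded by Gjb1, is the main gap junction protein of hepatocytes, and a dominant negative form blocks the channels that the normal protein builds. A methionine-choline deficient diet impairs the export of fat from hepatocytes and is a standard model of steatohepatitis, in which fat, inflammation and scarring come together. Stellate cells that have become myofibroblasts lay down the collagen of that scar, macrophages take up lipid and debris, and hepatocytes lose part of their metabolic programme. In rats given diethylnitrosamine, small groups of altered hepatocytes that express the placental glutathione transferase Gstp1 mark the earliest step toward liver tumours.

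Values are log2 normalized intensities, and a level is compared only between arrays for the same probe. The authors' background-subtracted value was present for 72.5% of probes on the Tg + luteolin array and 77.4% on the Tg array, and the median raw intensity was 48.6 and 54.4 units, near the array background of 38.1 and 39.8. An offset of 50 units used in the background correction pulls ratios toward 0, most of all those of dim genes. Gjb1 had a log2 intensity of 10.43 in Tg + luteolin and 10.07 in Tg (log2 ratio 0.36), beside 10.40 in Wt + luteolin and 10.40 in Wt. The files do not say whether its probe also reads the transgene, so Gjb1 does not check the genotype labels. Hepatocyte markers were bright on both transgenic arrays, with Alb at 15.62 in Tg + luteolin and 15.49 in Tg. Of 18 listed hepatocyte genes 16 had a probe, and all 16 were above background on both. So were 14423 of all 20174 probes, and being above background does not by itself identify the tissue.

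Collagen, lipid-associated macrophage, cell cycle and preneoplastic genes were mostly lower in transgenic liver with luteolin, and genes of cytochrome P450 enzymes, fatty acid oxidation and lipogenesis were mostly higher. Hepatocyte markers as such had 10 of 16 genes higher and 6 lower, with a median of 0.04, which was -0.14 with each array centred on its median. A total of 24 genes (0.167%) were 2-fold or more lower in Tg + luteolin than in Tg, and 13 (0.0907%) were 2-fold or more higher, 37 genes (0.258%) in all. At 1.5-fold the counts were 147 lower (1.03%) and 70 higher (0.488%). The median log2 ratio of all genes was 0.01, 95% of them lay between -0.40 and 0.36, and 54.5% lay above 0 against 45.5% below. Of the genes at 2-fold or more, 35.1% were higher. Under median centring of each array instead of quantile normalization 15.7% were higher, with a smaller offset of 16 units 25.8%, with the authors' background-subtracted values 19.9%, and with their globally normalized values 4.85%. On the last of these scales the median ratio of all genes itself was -0.26.

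**Figure D1:**
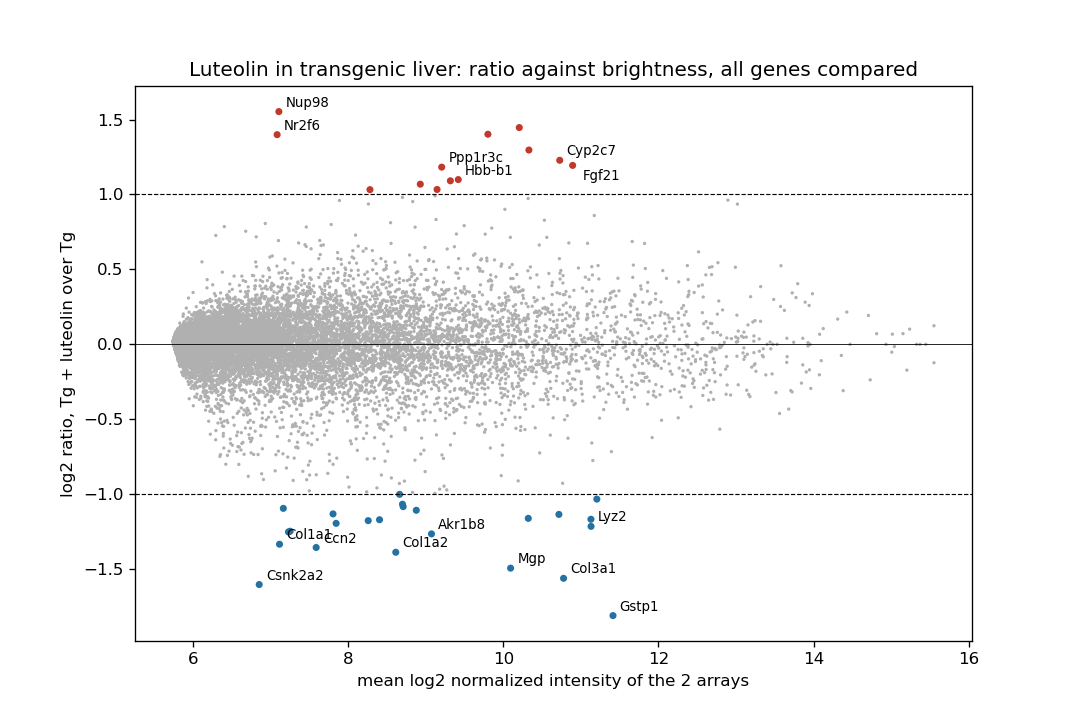
Each point is 1 of the 14331 genes compared, with the mean log2 normalized intensity of the 2 transgenic arrays on the x axis and the log2 ratio of Tg + luteolin over Tg on the y axis. Red points are the 13 genes 2-fold or more higher, blue points the 24 genes 2-fold or more lower, dashed lines mark 2-fold, and the red points without a name above 1.2 carry provisional symbols.

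Gstp1, the placental glutathione transferase of preneoplastic foci, had the lowest ratio of all genes compared. Its log2 intensity was 10.51 in Tg + luteolin and 12.32 in Tg, 3.51-fold lower, and 10.33 in Wt + luteolin and 12.12 in Wt. Both luteolin arrays were therefore low and both arrays without luteolin high, with no overlap. Gstp3, a close relative of Gstp1 in the same chromosomal cluster, went the other way, with 8.79 in Tg + luteolin and 7.76 in Tg, and 8.97 in Wt + luteolin and 8.02 in Wt. Gstp1 and Gstp3 are similar in sequence, and whether their probes share targets was not tested. The 150 bases before the start of both genes are shown because these neighbours had opposite ratios. Capitals mark the word TGACTCA or its reverse complement TGAGTCA, the classical AP-1 binding word, which is known in the proximal promoter of rat Gstp1. Sequences are those of RefSeq on GRCr8, 5′ to 3′ on the minus strand, at chr1:210769706-210769855 for Gstp1 and chr1:210787685-210787834 for Gstp3.
Gstp1: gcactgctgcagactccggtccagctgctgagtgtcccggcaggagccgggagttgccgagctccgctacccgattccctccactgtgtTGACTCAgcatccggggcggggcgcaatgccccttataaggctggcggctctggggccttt
Gstp3: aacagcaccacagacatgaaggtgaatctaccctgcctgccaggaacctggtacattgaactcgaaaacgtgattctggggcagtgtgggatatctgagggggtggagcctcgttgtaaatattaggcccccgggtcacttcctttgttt
The word begins 61 bases before the start of Gstp1 and is not in the Gstp3 window. It lies in 2.29% of all 27457 RefSeq windows of this length, in 2.01% of those of genes compared here, and in 3 of the 19 windows found for genes 2-fold or more lower, which are Gstp1, Gpnmb and Col6a1. A match is a description of the letters and shows no binding.

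Genes of preneoplastic and fetal liver were mostly lower with luteolin. Of 27 measured genes on this list, Gstp1 among them, 22 were lower and 5 higher in Tg + luteolin. The median log2 ratio was -0.33 beside 0.01 for all genes, and 3 genes, again with Gstp1, were 2-fold or more lower. Akr1b8, an aldo-keto reductase induced in altered hepatocytes, had 8.44 in Tg + luteolin and 9.70 in Tg, and 8.16 in Wt + luteolin and 10.06 in Wt. Bex1, a gene of fetal liver and hepatic progenitors, had 6.62 in Tg + luteolin and 7.87 in Tg, and 6.47 and 6.98 on the wild-type luteolin and untreated arrays. For Akr1b8, as for Gstp1, the arrays without luteolin lay above both luteolin arrays. For Bex1 they did too, with the Tg array above the Wt array. The adhesion proteins Epcam (-0.73) and Cd44 (-0.73), the tetraspanin Tspan8 (-0.86) and the phosphatase Cdkn3 (-0.67) had lower values, and alpha-fetoprotein (Afp) had 9.07 in Tg + luteolin and 9.48 in Tg.

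Antioxidant and conjugating enzymes lay nearer to the median of all genes. Of 28 measured glutathione transferase and glutathione synthesis genes, 16 were higher and 12 lower, with a median of 0.02. Gstp1 (-1.81) and Gstp3 (1.03) are the extremes of this list. Gstm2 (0.65) and Gstm7 (0.46) lay above 0, while Gsta5 (-0.49) and Gstm1 (-0.46) lay below it. Of 28 targets of the antioxidant regulator Nrf2, 13 were higher and 15 lower (median -0.06). Akr1b8 (-1.27) was the lowest of them, and in wild-type liver 7 were higher and 21 lower (median -0.07). Nqo1, a quinone reductase often used as a reporter gene of Nrf2, had a log2 ratio of -0.36, and the metallothionein Mt2A had 0.35. The 17 measured glucuronosyl, sulfo and ester conjugation enzymes had a median of 0.10, with 9 higher and 8 lower. With each array centred on its median these medians were lower, at -0.14 for glutathione genes, -0.21 for Nrf2 targets and -0.01 for conjugation enzymes, beside 0.05 for all genes.

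Collagens were lower as a group. Of 16 measured fibrillar and network collagens, 15 were lower and 1 higher in Tg + luteolin, the median log2 ratio was -0.49, and 4 were 2-fold or more lower. Col3a1, a fibrillar collagen of young scar, had 9.99 in Tg + luteolin and 11.56 in Tg, 2.95-fold lower, and 10.32 in Wt + luteolin and 10.27 in Wt. Col1a2 and Col1a1 encode the chains of type I collagen, the bulk of the scar. Col1a2 had 7.92 in Tg + luteolin and 9.30 in Tg, and 7.82 in Wt + luteolin and 8.17 in Wt. Col1a1 had 6.44 in Tg + luteolin and 7.78 in Tg, and 6.54 in Wt + luteolin and 6.78 in Wt. For all 3 the Tg array stood above the other 3 arrays, which lay close together, and the same holds for Col6a1 (-1.11) and Col4a1 (-0.98). Over the list, the Tg array was the highest of the 4 for 15 of 16 collagens, while over all genes it was the highest for 26.0%.

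Genes that process and cross-link collagen were lower at the top of their list. Loxl1, a lysyl oxidase that links elastin and collagen, had 6.60 in Tg + luteolin and 7.85 in Tg, and 6.49 in Wt + luteolin and 6.89 in Wt. Serpinh1, the collagen chaperone HSP47, had 8.16 in Tg + luteolin and 9.23 in Tg, and 8.02 in Wt + luteolin and 8.29 in Wt. Adamts2, which trims procollagen, Plod2, a lysyl hydroxylase, and Lox had ratios of -0.72, -0.71 and -0.64. Over 15 measured genes, 11 were lower and 4 higher, with a median of -0.13.

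Matrix glycoproteins and proteoglycans divided in size but seldom in direction. Of 36 measured, 30 were lower, 6 higher and 3 lower by 2-fold or more, and the median was -0.15. Mgp, an inhibitor of calcification, had 9.35 in Tg + luteolin and 10.84 in Tg, and 8.52 in Wt + luteolin and 9.54 in Wt, so each luteolin array lay below its own control. Fbn1, the microfibril protein fibrillin, had 7.24 in Tg + luteolin and 8.44 in Tg, and 7.48 in Wt + luteolin and 7.63 in Wt. The small proteoglycan Ogn had 7.23 in Tg + luteolin and 8.37 in Tg, and 7.45 in Wt + luteolin and 7.33 in Wt. For Fbn1 and Ogn the Tg array alone was high. Among the others, Nid1 (-0.78), Sparc (-0.74) and Eln (-0.63) had lower values, whereas the stellate cell proteoglycan Lum had 0.02.

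Proteases that remodel the matrix and their inhibitors were lower together. Of 24 measured, 20 were lower and 4 higher, with a median of -0.31. Serpine2, a protease inhibitor, had 7.82 in Tg + luteolin and 8.99 in Tg, and 7.83 in Wt + luteolin and 7.87 in Wt. Timp1, the metalloprotease inhibitor of fibrosis, had 7.99 in Tg + luteolin and 8.86 in Tg, and 7.58 in Wt + luteolin and 8.32 in Wt, and the macrophage elastase Mmp12 had 7.89 in Tg + luteolin and 8.85 in Tg, and 7.46 in Wt + luteolin and 8.22 in Wt. Timp1 and Mmp12 were lower with luteolin on both pairs of arrays, while Serpine2 had a ratio of -0.04 in wild-type liver.

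Ccn2, connective tissue growth factor and a target of TGF-beta, had 6.91 in Tg + luteolin and 8.26 in Tg, and 6.70 in Wt + luteolin and 7.08 in Wt. The pathway as a whole did not follow it. Of 28 measured TGF-beta ligands, receptors and targets, 11 were higher and 17 lower, with a median of -0.02. Pdgfrb, the stellate cell receptor for PDGF, had -0.69 and the ligand Tgfb3 -0.50, while Tgfb1 had -0.14. The BMP targets Id1 and Id3 had 0.41 and 0.36, with -0.70 and -0.46 in wild-type liver.

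Markers of the cells that make the scar moved with these genes. Of 19 measured stellate cell and myofibroblast markers, which include Col1a1 and Col3a1, 16 were lower and 3 higher, with a median of -0.39. Besides the collagens, Tagln (-0.87), a smooth muscle protein of myofibroblasts, and Cygb (-0.85), a globin of stellate cells, were the lowest, while the muscle filament gene Des had -0.17. The summed normalized intensity of these markers was 3563 in Tg + luteolin and 6510 in Tg, and 3631 in Wt + luteolin and 4057 in Wt. Bright members weigh most in such a sum, and it includes Col3a1, at a log2 intensity of 9.99 in Tg + luteolin and 11.56 in Tg. In whole liver, fewer cells of a type and less RNA per cell cannot be told apart. Contractile and cytoskeletal genes, many of them shared by myofibroblasts, bile duct cells and leukocytes, were lower in 23 of 26 cases (median -0.48), with Vim at -0.91, S100a6 at -0.89 and Anxa1 at -0.89.

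**Figure D2:**
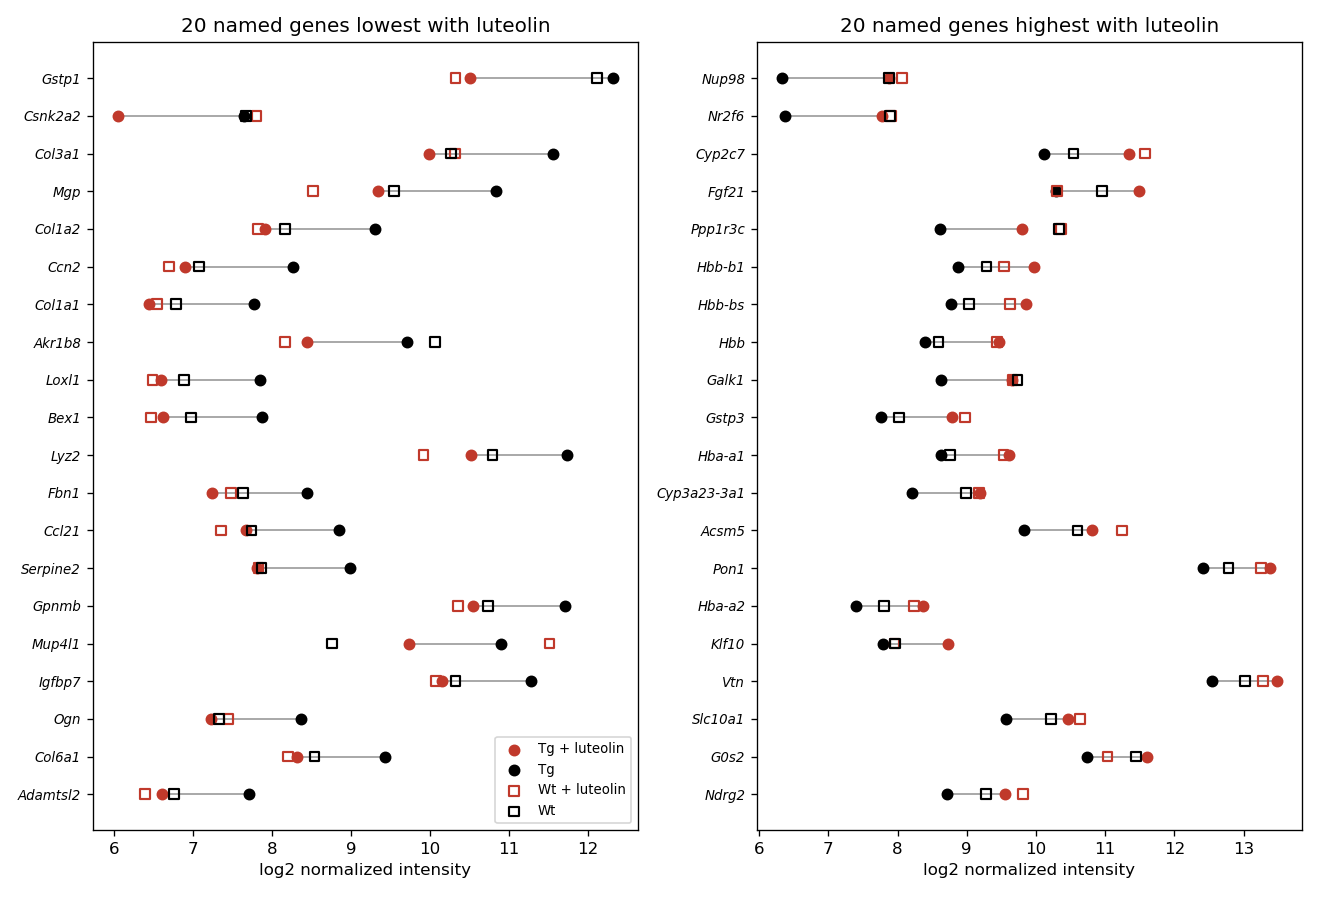
Log2 normalized intensity (x axis) of the 20 named genes with the lowest ratios (left) and the 20 with the highest (right) on all 4 arrays. Filled circles are Tg + luteolin (red) and Tg (black), joined by a grey line, and open squares are Wt + luteolin (red) and Wt (black). For most matrix genes the black circle alone lies to the right, while for Gstp1, Akr1b8 and Mgp both luteolin arrays lie left of their controls.

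Genes of macrophages that have taken up lipid were mostly lower with luteolin. Of 19 measured, 16 were lower and 3 higher, the highest at 0.45, with a median of -0.46, and 2 were 2-fold or more lower. Their summed normalized intensity was 62955 in Tg + luteolin and 66650 in Tg, and 61485 in Wt + luteolin and 65062 in Wt. The brightest members weigh most in this sum, so it does not follow the median. Gpnmb, a glycoprotein of lipid-laden macrophages, had 10.54 in Tg + luteolin and 11.71 in Tg, and 10.36 in Wt + luteolin and 10.73 in Wt. Lgals3, the lectin galectin-3, had 10.69 in Tg + luteolin and 11.72 in Tg, and 10.41 in Wt + luteolin and 10.69 in Wt. For both genes the Tg array stood above the other 3. The lipoprotein lipase Lpl (-0.996, just under 2-fold) and the lipid receptor Trem2 (-0.76) had lower values in wild-type liver too (-0.52 and -0.51).

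General macrophage and Kupffer cell markers did not share one direction. Of 16 measured, 7 were higher and 9 lower, with a median of -0.04. Lyz2, lysozyme of myeloid cells, had 10.52 in Tg + luteolin and 11.74 in Tg, and 9.92 in Wt + luteolin and 10.79 in Wt, and was lower on both pairs. Cd68 had -0.67, while Clec4f, a lectin confined to Kupffer cells among liver macrophages, had 0.24, and the scavenger receptor Cd163 had 0.15. The summed intensity of the list was 9704 in Tg + luteolin and 11972 in Tg, a sum in which bright members such as Lyz2 weigh most.

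Other inflammatory and immune genes lay near the median of all genes. The chemokine Ccl21 was 2-fold or more lower, with 7.67 in Tg + luteolin and 8.84 in Tg, and 7.36 in Wt + luteolin and 7.74 in Wt. Across 44 chemokine, cytokine and NF-kB genes 14 were higher and 30 lower, with a median of -0.06. The monocyte chemokine Ccl2 had -0.71 and 0.16 in transgenic and wild-type liver. Median ratios were -0.04 for 18 T and NK cell markers (5 higher, 13 lower) and -0.09 for 9 neutrophil markers (2 higher, 7 lower). They were 0.03 for 33 interferon-stimulated genes, 0.03 for 21 antigen presentation genes and -0.01 for 28 acute phase genes. The acute phase median was -0.19 with each array centred on its median. Over all alternatives the medians ranged from -0.31 to 0.07 for T and NK cell markers and from -0.49 to -0.004 for neutrophil markers. That of the chemokine, cytokine and NF-kB genes ranged from -0.23 to -0.05. The protease inhibitor A2m, an acute phase protein of the rat, was the lowest of the acute phase list at -0.76.

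Cell cycle genes were lower almost without exception, in small steps with the offset used here. Of 27 measured genes of mitosis, 26 were lower and 1 higher, with a median of -0.29, and of 28 genes of DNA replication, 27 were lower and 1 higher, with a median of -0.20. None reached 2-fold. Cdca3, a trigger of mitotic entry, had 6.27 in Tg + luteolin and 7.15 in Tg, and 6.41 in Wt + luteolin and 6.65 in Wt. Pcna, the sliding clamp of replication, had 8.63 in Tg + luteolin and 9.26 in Tg, and 8.54 in Wt + luteolin and 8.71 in Wt. Cyclin B1 (Ccnb1, -0.60), the spindle motor Kif20a (-0.71) and the ribonucleotide reductase subunit Rrm2 (-0.66) had lower values. The Tg array was the highest of the 4 for 25 of 27 mitosis genes and 26 of 28 replication genes, beside 26.0% of all genes. The Tg + luteolin array was the lowest for 22 of the mitosis and 11 of the replication genes, beside 3156 of all 14331 genes. In wild-type liver 26 of 27 and 22 of 28 were lower with luteolin, with medians of -0.15 and -0.07. For p53 targets and cell cycle inhibitors the median was -0.02, with 10 of 21 genes higher and 11 lower.

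Bile duct and progenitor markers, which include Epcam and Tspan8 of the preneoplastic list, were lower in 14 of 18 cases (median -0.15). Krt19, a keratin of bile ducts, had 7.001 in Tg + luteolin and 7.55 in Tg, and 6.58 in Wt + luteolin and 7.23 in Wt. The progenitor marker Prom1 had -0.64. The summed intensity of these markers, with the offset in each value, was 2339 in Tg + luteolin and 2900 in Tg. Endothelial markers had a median of 0.02, with 8 of 15 higher and 7 lower.

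Several lists of hepatocyte enzymes lay above 0. Cytochrome P450 enzymes had a median of 0.28, the highest under quantile normalization, with 19 of 23 measured genes higher and 4 lower. Cyp2c7, a retinoid and steroid hydroxylase, had 11.34 in Tg + luteolin and 10.11 in Tg, 2.34-fold higher, and 11.58 in Wt + luteolin and 10.54 in Wt, so that both luteolin arrays lay above both controls. Cyp3a23-3a1, an inducible drug-metabolizing enzyme, had 9.19 in Tg + luteolin and 8.21 in Tg, and 9.18 in Wt + luteolin and 8.99 in Wt, with the Tg array alone low. Cyp2a1 (0.71) and Cyp2d5 (0.67) followed, and Por, the electron donor of these enzymes, had -0.38.

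Genes of fatty acid oxidation and targets of the nuclear receptor PPAR-alpha were higher in 36 of 44 cases and lower in 8, with a median of 0.25. Fgf21, a hepatic hormone of fasting and of amino acid shortage, was bright and 2-fold or more higher, with 11.49 in Tg + luteolin and 10.30 in Tg. In wild-type liver it ran the other way, with 10.31 in Wt + luteolin and 10.96 in Wt. Its upstream window is shown because it holds the word TTGCATCA, the reverse complement of TGATGCAA, a word of the composite C/EBP-ATF element through which amino acid shortage is known to act. The 150 bases lie at chr1:105221377-105221526 of RefSeq GRCr8 and are written 5′ to 3′ on the minus strand, with the word in capitals.
Fgf21: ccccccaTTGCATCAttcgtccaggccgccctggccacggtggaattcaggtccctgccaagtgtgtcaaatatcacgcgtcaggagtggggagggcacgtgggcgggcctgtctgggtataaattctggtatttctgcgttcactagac
The word begins 143 bases before the start and lies in 0.412% of all windows of this length, and among the 10 windows found for genes 2-fold or more higher only Fgf21 holds it. Other genes of the integrated stress response did not share the ratio of Fgf21. Of 36 measured, 19 were higher and 17 lower (median 0.03), with Trib3 at 0.43, Psat1 at 0.37, Chac1 at 0.35 and Ddit3, which encodes CHOP, at -0.40.

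Within the oxidation list the acyl-CoA synthetases Acsm5 and Acsm2 were next. Acsm5 had 10.80 in Tg + luteolin and 9.83 in Tg, and 11.25 in Wt + luteolin and 10.60 in Wt. Acsm2 had 10.94 in Tg + luteolin and 10.11 in Tg, and 10.50 in Wt + luteolin and 10.58 in Wt. The lipase inhibitor Angptl4 (0.71), the carnitine transferase Cpt2 (0.65) and the pyruvate dehydrogenase kinase Pdk4 (0.64) also lay above 0. Cpt1a, the gate of mitochondrial fatty acid entry, had 0.20. The Tg array was the lowest of the 4 for 32 of the 44 genes, while over all genes it was the lowest for 32.5%.

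Fat-making genes were higher at the same time. Of 20 measured lipogenic genes 18 were higher and 2 lower, with a median of 0.23. Thrsp, a regulator of lipogenesis in liver, had 10.24 in Tg + luteolin and 9.46 in Tg, and 10.39 in Wt + luteolin and 10.12 in Wt. Scd, the hepatic stearoyl-CoA desaturase, had 9.93 in Tg + luteolin and 9.33 in Tg, and 10.09 in Wt + luteolin and 10.20 in Wt, whereas its relative Scd2 had -0.53. For Thrsp and Scd the Tg array alone was low. Of 26 triglyceride and lipid droplet genes 20 were higher and 6 lower (median 0.11). G0s2, an inhibitor of the fat lipase, had 0.86 with -0.41 in wild-type liver, and the phosphatase Lpin1 had -0.76. Cholesterol synthesis genes were higher in 19 of 24 cases (median 0.11), a median that turned to -0.05 with each array centred on its median.

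Bile acid genes pulled apart. Of 18 measured, 14 were higher and 4 lower, with a median of 0.18. Cyp7a1, the rate-limiting enzyme of bile acid synthesis, had 8.76 in Tg + luteolin and 9.71 in Tg, and 9.75 in Wt + luteolin and 9.19 in Wt. Slc10a1, the sodium-dependent bile acid uptake carrier, had 10.47 in Tg + luteolin and 9.57 in Tg, and 10.63 in Wt + luteolin and 10.22 in Wt. Cyp8b1 (0.51) and the bile acid ligase Slc27a5 (0.68) lay above 0. Among 32 hepatic transporters 25 were higher and 7 lower (median 0.16), and Slc38a2, an amino acid transporter, was lowest at -0.77.

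Amino acid catabolism and the urea cycle had 28 of 38 genes higher and 10 lower, with a median of 0.17, and the Tg array was the lowest of the 4 for 25 of them. Aspg (0.72), an asparaginase, and Kmo (0.65), of the kynurenine route, were the highest, the liver glutaminase Gls2 had 0.56, and Tat, tyrosine aminotransferase, was the lowest at -0.78. Of 35 methionine, choline and one-carbon genes, the pathway that the diet starves, 23 were higher and 12 lower (median 0.13). Cth, which makes cysteine from cystathionine, had 10.79 in Tg + luteolin and 10.13 in Tg, and 10.81 in Wt + luteolin and 10.37 in Wt. Gnmt (0.56) and Bhmt (0.51), which consume and remake methionine, also lay above 0.

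In glucose metabolism a single gene stood out. Ppp1r3c, which targets protein phosphatase to glycogen, had 9.79 in Tg + luteolin and 8.61 in Tg, 2.27-fold higher, and 10.36 in Wt + luteolin and 10.33 in Wt. Both transgenic arrays lay below both wild-type arrays for this gene. Its relative Ppp1r3b had 0.54 and the gluconeogenic enzyme Pck1 had -0.49. Over 31 genes the median was 0.01, with 17 higher and 14 lower.

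Among secreted proteins of hepatocytes, Pon1 and Vtn were among the 20 named genes with the highest ratios. Pon1, a lipoprotein-bound esterase, had 13.38 in Tg + luteolin and 12.41 in Tg, and 13.25 in Wt + luteolin and 12.78 in Wt. Vtn, vitronectin, had 13.49 in Tg + luteolin and 12.55 in Tg, and 13.28 in Wt + luteolin and 13.02 in Wt. For Pon1 and Vtn both luteolin arrays lay above both controls. Apolipoprotein and lipoprotein genes were higher in 12 of 18 cases (median 0.11, and -0.02 with each array centred on its median), and complement and coagulation factors in 23 of 32 (median 0.09, and -0.04 with that centring). Acute phase proteins, also secreted by hepatocytes, had 13 genes higher and 15 lower.

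**Figure D3:**
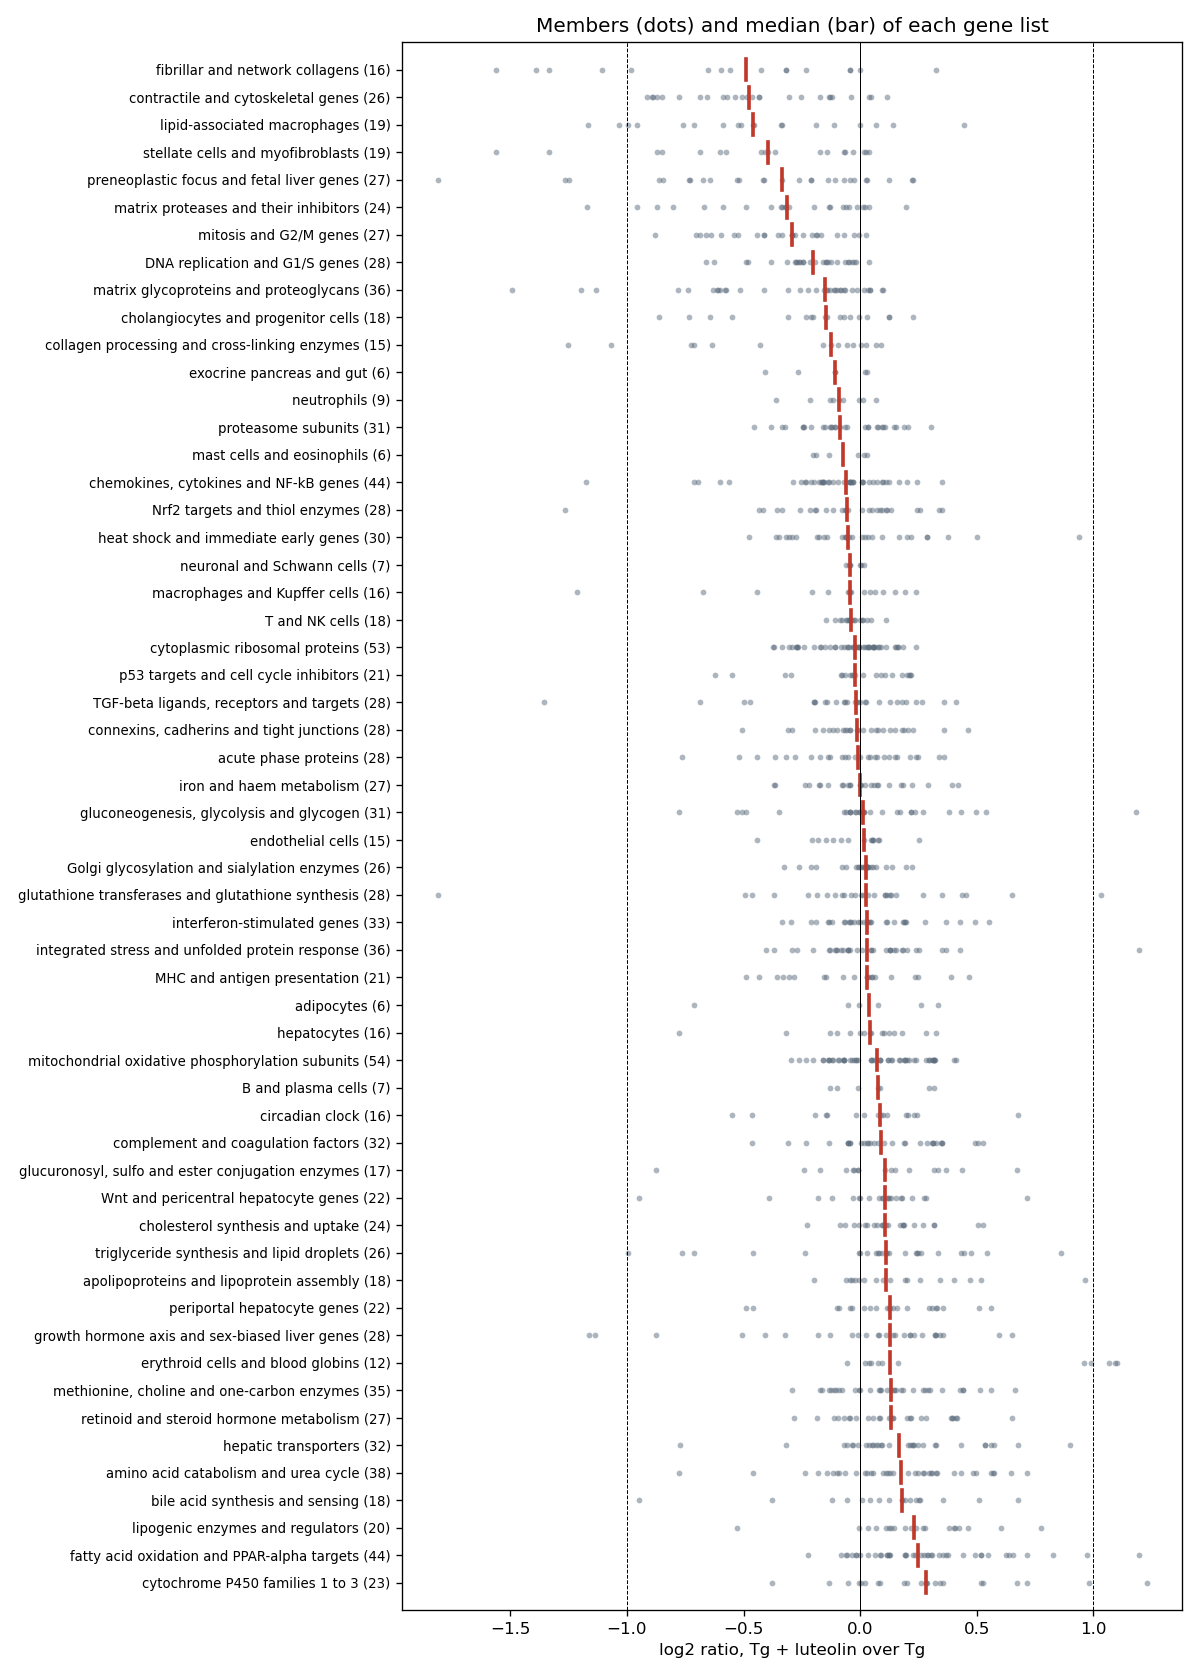
Each row is a gene list with the number of members above background on both transgenic arrays in parentheses, dots are the log2 ratios of Tg + luteolin over Tg of its members (x axis), and the red bar is their median. The median is -0.49 for collagens, at the top, and 0.28 for cytochrome P450 enzymes, at the bottom, under quantile normalization, dashed lines mark 2-fold, and lists with under 5 measured members are not drawn.

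Medians in both directions moved with the scaling. With each array centred on its median, all genes had a median of 0.05. The medians of P450 enzymes (0.13), fatty acid oxidation (0.10) and lipogenic genes (0.18) lay above it, though below that of erythroid genes (0.25). Those of P450 enzymes and fatty acid oxidation also lay below that of B and plasma cell markers (0.14). Fatty acid oxidation lay below adipocyte (0.12) and neuronal markers (0.11) as well. Medians of bile acid genes (0.04), amino acid catabolism (0.06), hepatic transporters (0.06), methionine and choline genes (0.01) and triglyceride genes (0.07) lay near or below that of all genes. Under the same centring contractile genes (-0.61) and lipid-associated macrophage genes (-0.59) lay below collagens (-0.53). Collagens ranged from -1.02 to -0.43 over all alternatives, lipid-associated macrophage genes from -0.59 to -0.45, and mitosis genes from -1.29 to -0.27.

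Blood globins were the one cell type list with genes 2-fold or more higher. Among beta-globins Hbb-b1 had a ratio of 1.10, Hbb-bs of 1.09 and Hbb of 1.07, and the alpha-globin genes Hba-a1 and Hba-a2 had 0.99 and 0.96. Hbb-b1 had 9.97 in Tg + luteolin and 8.87 in Tg, and 9.54 in Wt + luteolin and 9.28 in Wt. Hbb had 9.46 in Tg + luteolin and 8.39 in Tg, and 9.44 in Wt + luteolin and 8.59 in Wt. Each luteolin array lay above both controls for Hbb-b1, Hbb-bs and Hbb. The red cell genes Alas2 (0.08), which starts haem synthesis in erythroid cells, and Slc4a1 (0.16), the anion exchanger, did not show the same size. The summed intensity of the 12 measured erythroid genes was 4168 in Tg + luteolin and 2207 in Tg, and 3690 in Wt + luteolin and 2601 in Wt, and the amount of blood in the samples was not tested. The upstream windows of the beta-globin genes are shown because these genes are near copies. Their probes may share target sequence, which was not tested, so the 3 ratios may not be independent. Capitals mark CCAAT or its reverse complement ATTGG, the CCAAT box of globin promoters. The windows lie on chromosome 1 of RefSeq GRCr8 at chr1:167643521-167643670 for Hbb-b1, chr1:167631631-167631780 for Hbb-bs and chr1:167663722-167663871 for Hbb, each 5′ to 3′ on the minus strand.
Hbb-b1: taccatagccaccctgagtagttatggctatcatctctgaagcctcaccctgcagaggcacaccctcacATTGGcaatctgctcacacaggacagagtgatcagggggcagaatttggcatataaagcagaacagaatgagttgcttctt
Hbb-bs: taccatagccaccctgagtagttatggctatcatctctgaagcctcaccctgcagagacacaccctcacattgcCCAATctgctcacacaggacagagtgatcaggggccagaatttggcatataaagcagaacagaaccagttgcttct
Hbb: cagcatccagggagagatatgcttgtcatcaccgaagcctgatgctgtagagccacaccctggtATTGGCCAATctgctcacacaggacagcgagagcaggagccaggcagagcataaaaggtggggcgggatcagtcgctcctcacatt
The word begins 81 bases before the start of Hbb-b1 and 76 bases before that of Hbb-bs, and Hbb holds it on both strands at 86 and 81. CCAAT or ATTGG lies in 23.7% of all windows, in 5 of 10 found for genes 2-fold or more higher and in 0 of 19 for genes 2-fold or more lower. The 5 include the 3 globin windows.

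Among connexins, Gja1 had the lowest ratio (-0.51) and Gjb1 0.36. Gja1, connexin 43 of non-parenchymal cells, had 7.84 in Tg + luteolin and 8.34 in Tg, and 7.56 in Wt + luteolin and 7.80 in Wt. Gjb2, connexin 26, the partner of connexin 32 in hepatocytes, had 9.47 in Tg + luteolin and 9.40 in Tg. Over 28 connexin, cadherin and tight junction genes 13 were higher and 15 lower, with a median of -0.01, and Cldn1, a tight junction claudin, was highest at 0.46.

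Some genes under growth hormone and sex control had opposite ratios in the genotypes, although the list as a whole lay above 0 in both. Mup4l1, a member of the major urinary protein family, had 9.74 in Tg + luteolin and 10.90 in Tg, but 11.51 in Wt + luteolin and 8.76 in Wt. Mup5 had 8.54 in Tg + luteolin and 8.95 in Tg, and 9.56 in Wt + luteolin and 7.48 in Wt. Members of the Mup family are near copies, so the probes may share targets. Sult1e1, the estrogen sulfotransferase, had 9.53 in Tg + luteolin and 10.41 in Tg, and 10.02 in Wt + luteolin and 9.40 in Wt. Cyp2c11, the male-specific P450 of rat liver, had 8.52 in Tg + luteolin and 8.18 in Tg, and 10.13 in Wt + luteolin and 8.36 in Wt. Over 28 genes of the list 18 were higher in transgenic liver (median 0.13) and 20 in wild-type liver (median 0.29), Cyp2c11 among both, and the labels do not give the rats' sex.

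Several of the largest ratios rest on a single array that stands apart, taken here as a distance of 0.7 or more (log2) from the median of the remaining arrays, which lie within 0.4 of each other. Of the 24 genes 2-fold or more lower, 16 were high on the Tg array alone and 1, Csnk2a2, was low on the Tg + luteolin array alone. Csnk2a2, a catalytic subunit of casein kinase 2, had 6.05 in Tg + luteolin, against 7.65 in Tg, 7.81 in Wt + luteolin and 7.68 in Wt. Of the 13 genes 2-fold or more higher, 3 were low on the Tg array alone, and these were Nup98, Nr2f6 and Galk1. The nucleoporin Nup98 had the highest ratio of all, with 7.88 in Tg + luteolin and 6.33 in Tg, and 8.06 in Wt + luteolin and 7.88 in Wt. The nuclear receptor Nr2f6 had 7.78 in Tg + luteolin and 6.38 in Tg, and 7.91 in Wt + luteolin and 7.89 in Wt. Nup98 and Nr2f6 stand in consecutive rows of the deposited table, rows 3153 and 3154, and Galk1 stands in row 2945, and whether spot position had a part in these values was not tested. Without 46 probes that lie beside another standing apart on the same array, the counts at 2-fold were 11 higher and 22 lower. For this removal a deviation of 0.5 or more from the other arrays was enough. Nup98 and Nr2f6 were the higher genes lost, and Col6a1 and Ccl21, both high on the Tg array, the lower ones. Kif20a and Rrm2, also high on the Tg array, were among the probes removed. Whether spot position had a part in the values of Col6a1, Ccl21, Kif20a and Rrm2 was not tested either.

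Genes above background on 1 of the 2 arrays have a bound in place of a ratio. There were 198 such genes on the Tg + luteolin array alone and 1167 on the Tg array alone, beside probe counts above background of 14625 and 15606. All were dim, and with the offset of 50 units none of their bounds reached 1.5-fold, which sets no upper limit on the difference. The largest were at least 1.20-fold higher for Nat8l and at least 1.22-fold lower for Crygn and 1.19-fold lower for Ncam1, a neural adhesion protein that activated stellate cells also carry.

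Wild-type liver, with its own pair of arrays, shows which ratios recur. Of the 24 genes 2-fold or more lower in Tg + luteolin, 20 were also below 0 in Wt + luteolin against Wt, with a median of -0.34, and 3 reached 2-fold there, which were Gstp1 (-1.79), Akr1b8 (-1.90) and Mgp (-1.02). Of the 13 higher genes, 11 were above 0 in wild type, with a median of 0.32, and Cyp2c7 (1.03) reached 2-fold. In wild type 49.6% of the same genes were below 0 and 50.2% above, and 0.113% were 2-fold or more lower and 0.0708% higher. The collagen list had a median of -0.49 in transgenic and -0.10 in wild-type liver, the stellate list -0.39 and -0.04, the lipid-associated macrophage list -0.46 and -0.25, and the preneoplastic list -0.33 and -0.17. With 1 array a group, the difference between genotypes was not tested.

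**Figure D4:**
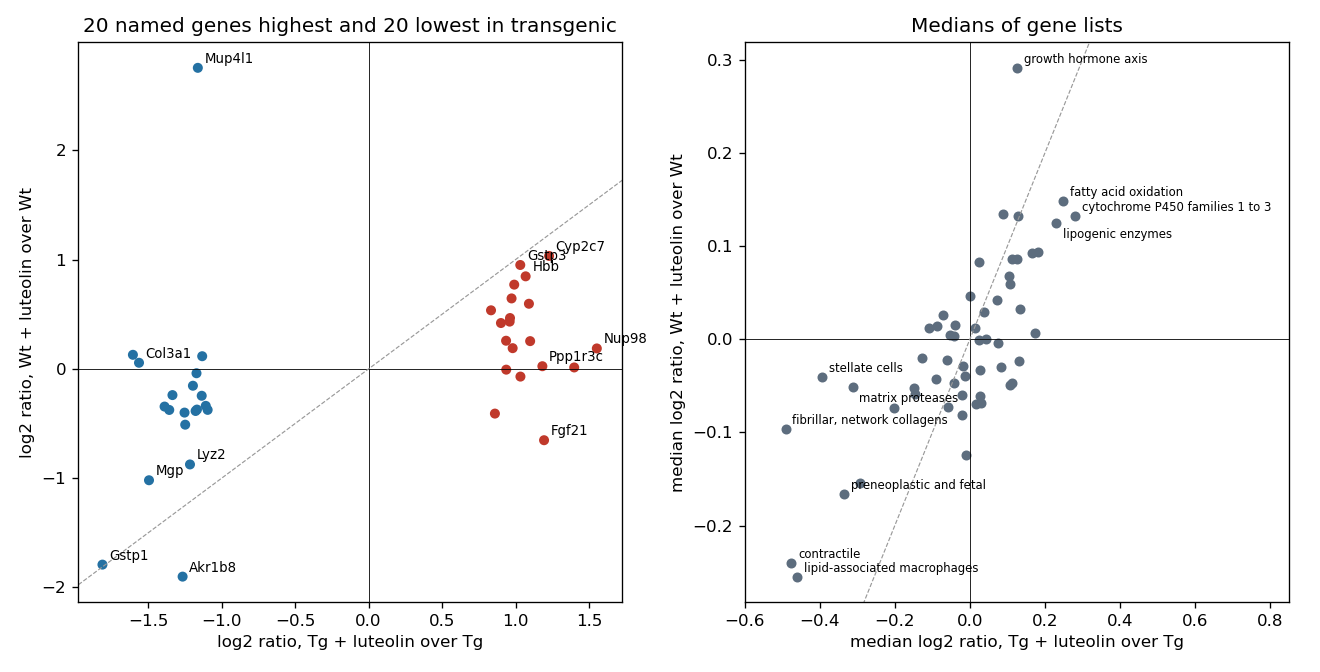
Log2 ratio of luteolin over control in transgenic liver (x axis) and in wild-type liver (y axis), for the 20 named genes highest (red) and 20 lowest (blue) in transgenic liver (left), and for the medians of gene lists (right). The dashed line marks equal ratios, solid lines mark 0, Gstp1 lies near the dashed line at -1.81 and -1.79, and Col3a1 lies at -1.56 in transgenic and 0.06 in wild-type liver.

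Lists of general cell functions lay near the median of all genes under quantile normalization, but not under median centring. Cytoplasmic ribosomal proteins had a median of -0.02 (21 of 53 higher, 32 lower), proteasome subunits -0.09 (13 of 31 higher, 18 lower), and mitochondrial oxidative phosphorylation subunits 0.07 (31 of 54 higher, 23 lower). With each array centred on its median these medians were -0.20, -0.25 and -0.09, beside 0.05 for all genes. Heat shock and immediate early genes had a median of -0.05, although Klf10, an immediate early repressor, had 8.73 in Tg + luteolin and 7.79 in Tg, and 7.96 in Wt + luteolin and 7.96 in Wt. The clock genes Per1 (-0.55) and Per2 (-0.46) had lower values, and Bhlhe40, a repressor of the clock, had 0.68. Markers of tissues that could be sampled with the liver were often not above background. Among markers with a probe, 6 of 12 of pancreas and gut and 4 of 12 of muscle were above background on both arrays. So were 6 of 11 of adipocytes and 7 of 12 of neuronal cells, beside 14423 of all 20174 probes. The defining genes Prss2 and Pnlip of pancreas, Myh7 and Ckm of muscle and Adipoq and Lep of fat had no value on at least 1 of the transgenic arrays.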

How the data were processed

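Per the labels' protocols, liver RNA was amplified and Cy5-labelled for arrays of 1 colour. Per the file headers, the deposited intensity columns hold a raw spot value, a background-subtracted value and a globally normalized value. In these values the authors' background-subtracted intensity equals raw less 1 constant per array, and the globally normalized one has its median at 25. The sources used here give no scanner, software or genome build.

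From the raw intensity and that constant, limma (3.58.1, R 4.3.3) was used for normexp correction with an offset of 50, log2 and quantile normalization over 4 arrays. On the Tg + luteolin array 2 spots with a poor quality mark were left out. Genes were named through RefSeq tables (GRCr8): 10656 probes by curated accession, 3125 by Entrez identifier, 78 by another accession, 1504 and 207 by current symbol or synonym, with the file's name kept for 2568, none for 1990, and 46 conflicting ones left unnamed. The brightest probe stood for a gene. Genes named are the 20 highest and 20 lowest, the 5 largest bounds each way, and list members chosen by size (up to 8 and any at 2-fold), plus Gjb1 and defining cell markers. Provisional symbols were counted and not named. The comparison, the 57 gene lists and the rules were chosen with earlier results of these data known. A bound sets the bright array's value against the lowest signal kept on the dim array. No test was run, since each group has 1 array, whose number limits precision. The normalization was tested on simulated data with changes planted in bright genes only, so dim genes were not covered. The median ratios recovered there were smaller in size than those planted. There were 11 alternatives. RefSeq windows were found for 29 of the 37 genes at 2-fold.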

Additional observations from a re-analysis of the deposited data

Results flagged for a closer look

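Genes that differed by 1.5-fold or more in opposite directions in the genotypes are given here, and with 1 array a group the difference between genotypes was not tested. Fgf21 had a log2 ratio of 1.19 for Tg + luteolin over Tg and -0.65 for Wt + luteolin over Wt. Mup4l1 had -1.16 in transgenic and 2.75 in wild-type liver. Sult1e1 had -0.88 in transgenic and 0.62 in wild-type liver.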

How the results depend on the processing

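The counts of genes 2-fold or more higher and lower were 13 and 24, and they depend on the scaling and the offset. They were 8 and 43 with each array centred on its median, 25 and 72 with an offset of 16, 114 and 460 with the authors' background-subtracted values centred on the median ratio, and 44 and 864 with the authors' globally normalized values as deposited. The last 2 settings have neither offset nor quantile normalization, and in the last the median ratio of all genes is -0.26. With the authors' background-subtracted values the log2 ratio of Csnk2a2 was -3.41, the log2 ratio of Col1a1 was -2.24 and the log2 ratio of Nup98 was 2.63. The number of gene lists whose median lay 0.1 or more from that of all genes was 26, and 40 under each of the authors' scales. Cyclic loess gave 14 and 23, the 2 transgenic arrays normalized alone 13 and 23, and a minimum of 50 units on both arrays 11 and 19 of 6102 genes. No filter on dim probes, the mean over probes and the removal of shifted stretches of the file, of which none was found, gave 13 and 24. The removal of probes beside another that stands apart was chosen after seeing the data. Of list medians more than 0.1 from 0, median centring changed the sign for glucuronosyl, sulfo and ester conjugation enzymes (-0.0119), cholesterol synthesis (-0.0461), apolipoproteins (-0.023), periportal genes (-0.0647) and exocrine pancreas and gut (0.0211), and the cause was not tested. Of the other list medians over 11 alternatives, 534 moved by less than 0.1 and 86 by more. Of values of named genes 4340 moved by less than 0.5 and 139 by more, with no change of sign at 2-fold. These totals do not measure stability over separate settings. The removal of shifted stretches could move no value, and the authors' 2 scales, once centred, each moved 21 list medians and 67 named genes. No paired analysis was possible because each group has 1 array. Of the probes kept, 57.9% on the Tg + luteolin array and 55.4% on the Tg array lay under 50 units above background, which limits what can be seen of dim genes.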
